A study of Mus musculus with 8 samples.

Results

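The broad BRG1 regions described here are the stretches of the autosomes that the authors' list of BRG1-enriched regions joined into single intervals of 9.6 to 100 kb. They were chosen by their length in that list alone, and 2666 of its 524614 regions met the rule, or 0.508%. The list was made from hearts of adult C57BL/6 mice, aged 10 to 12 weeks by the labels and somewhat older by the methods, that had been given Tβ4 (12 mg per kg, intraperitoneally, every day for a week) and then a myocardial infarction (MI), made by tying off the left anterior descending coronary artery for good. Tβ4 was injected again after MI, and the hearts were collected on day 4. ChIP-seq with an antibody to BRG1 gave 2 libraries and unprecipitated input chromatin 2 more, and PBS-primed, injured hearts gave the same 4 libraries, 8 in all, with PBS in place of Tβ4. The list sets BRG1 against input in the Tβ4-primed, injured hearts. It holds positions only, with no height or read count, and its duplicates cannot be told apart. The depth behind a region and the spread between hearts are therefore unknown, the effect of Tβ4 was not tested, and the intervals below cover counting error alone. Regions of the PBS-primed hearts were not analysed here. Chromatin of whole hearts mixes cardiomyocytes with epicardial, endothelial, stromal and blood cells, so a region cannot be assigned to a cell type.

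BRG1 (gene Smarca4) is an ATPase of the SWI/SNF complexes, which slide or evict nucleosomes and so change the access of other proteins to DNA. SWI/SNF binding is usually described at promoters and at enhancers, each far shorter than the regions considered here. In general, an enriched interval of many kilobases can be a chain of neighbouring sites or a domain of low, even signal, and a list without heights does not tell these apart.

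The sequences below show the range of DNA that the broad regions hold, in mm9, with every CG dinucleotide in capitals. The first 3 are the 150 bases upstream of gene starts that lay inside a broad region, read 5′ to 3′ on the strand of the gene. Hcn4 (chr9:58671169-58671318, plus strand) had 18 CG, whereas Nrxn3 (chr12:89961170-89961319, plus strand) had 2 and Trdn (chr10:32803139-32803288, plus strand) had 0.
Hcn4: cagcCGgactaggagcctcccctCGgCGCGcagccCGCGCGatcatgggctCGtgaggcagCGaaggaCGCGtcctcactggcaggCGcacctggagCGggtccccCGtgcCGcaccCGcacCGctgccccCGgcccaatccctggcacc
Nrxn3: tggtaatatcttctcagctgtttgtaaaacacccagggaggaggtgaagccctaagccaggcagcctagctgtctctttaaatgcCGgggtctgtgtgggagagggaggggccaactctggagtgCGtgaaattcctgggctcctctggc
Trdn: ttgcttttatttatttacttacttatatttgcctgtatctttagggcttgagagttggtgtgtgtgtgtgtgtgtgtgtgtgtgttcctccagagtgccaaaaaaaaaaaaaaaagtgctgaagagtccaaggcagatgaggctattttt

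The next 4 are the 120 bases at the centre of regions from the ends of the GC range, on the plus strand. The first lies in Srcin1, outside its exons (chr11:97424310-97424429), in a region of 56.0% GC. The others are from the 3 regions with the lowest GC content, outside genes on chromosome 13 (chr13:87901905-87902024, region 31.7% GC) and chromosome 7 (chr7:67083285-67083404, region 32.2% GC), and in Cadm2 outside its exons (chr16:67162965-67163084, region 32.7% GC).
Srcin1 region: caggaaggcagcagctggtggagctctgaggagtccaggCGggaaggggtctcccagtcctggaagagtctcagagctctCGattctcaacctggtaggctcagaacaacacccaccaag
Chromosome 13 region: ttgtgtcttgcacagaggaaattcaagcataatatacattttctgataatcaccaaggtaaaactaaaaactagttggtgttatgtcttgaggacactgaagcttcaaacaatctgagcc
Chromosome 7 region: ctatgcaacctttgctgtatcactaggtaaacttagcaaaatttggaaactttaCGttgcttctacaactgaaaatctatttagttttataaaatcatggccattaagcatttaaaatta
Cadm2 region: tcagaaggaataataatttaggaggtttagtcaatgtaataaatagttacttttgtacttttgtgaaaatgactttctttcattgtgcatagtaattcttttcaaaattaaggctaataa

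The longest intervals lay over gaps of the assembly. Of the 2666 regions, 21 lay mainly over bases that mm9 leaves unsequenced, which no read can map to, at 64.0 to 99.5% of their length. They included the 20 longest regions, from 50280 to 87570 bp, each at least 87.0% unsequenced, and 11 of them spanned exactly 50000 unsequenced bases. The sequenced bases in these 21 regions numbered 280 to 7500, with a median of 1660. The 10 longest regions, which fall among them, lay over the protein-coding genes Myo3a, D5Ertd579e, Mest, Copg2 and Impg1. Little of these overlaps was sequenced, and they are not used further. The remaining 2645 regions ended at 27720 bp, and no region had a length between that and 50280 bp. They are described from here on, with values over all 2666 regions beside some of them.

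The 2645 regions had a median length of 11220 bp, with quartiles at 10260 and 12840 bp. Their number fell steadily with length, which the rule does not set beyond its lower bound. At least 12 kb was reached by 950 regions, 14.4 kb by 348, 16.8 kb by 123, 19.2 kb by 40 and 21.6 kb by 11. Each step of 2.4 kb up to 19.2 kb thus kept between 32.5 and 36.6% of the regions before it, and the lengths showed no separate group of very long regions. At the threshold, 33 regions measured 9600 bp, among them regions inside Aff3, Kif14 and Aig1. Just below it, 34 measured 9570 bp, among them one inside Irs1 and one that reached into Nppc.

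**Figure D1:**
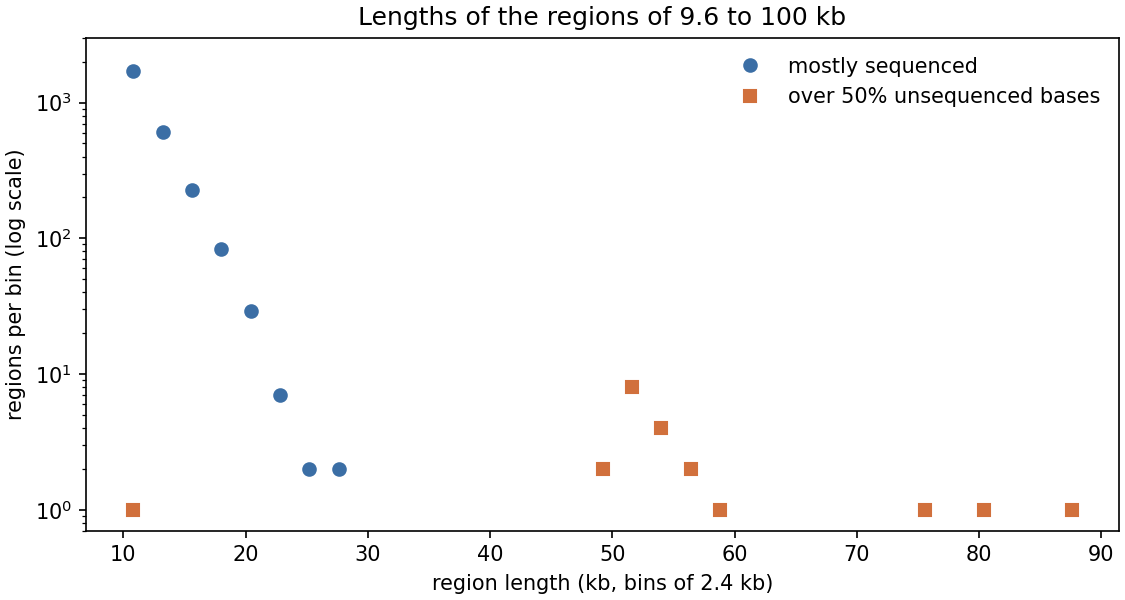
Number of regions per 2.4 kb of length (y axis, log scale) against region length in kb (x axis), with circles for the 2645 regions that were mostly sequenced and squares for the 21 with over 50% unsequenced bases; each point stands at the centre of its bin, and bins without a region are not drawn. The circles fall in near-even steps and end at 27720 bp, and 20 of the 21 regions drawn as squares measured at least 50280 bp, the other being 9960 bp long.

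The longest region of mostly sequenced bases, 27720 bp at chr7:84753060-84780779, overlapped no annotated gene. The next, 26640 bp at chr6:106103460-106130099, lay wholly in Cntn4, which encodes a neural adhesion molecule, between 476 and 502 kb from its start and without an exon. Of the 10 longest, 4 lay outside genes, and the others overlapped Cntn4, Dlg2, Abca1, Dnahc9 and the non-coding genes Gm3985, Gm12130 and Gm12296. Abca1, the cholesterol efflux transporter, had 16381 of the 22650 bp of its region. These 10 were named after the unsequenced regions had been seen.

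The broad regions were spread over every autosome. They numbered 1.10 per Mb of sequenced bases over the 19 autosomes, with the highest rates on chromosome 12 (1.25 per Mb, 147 regions), chromosome 1 (1.21, 232) and chromosome 4 (1.20, 183). The lowest rates were on chromosome 19 (0.757 per Mb, 44 regions), chromosome 11 (0.926, 110) and chromosome 17 (0.968, 89).

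Most of them stood apart, but they had a broad neighbour more often than stretches of the genome outside them did. Another broad region lay within 50 kb of 376 of the 2645 (14.2%, 95% Wilson interval 12.9 to 15.6%), within 20 kb of 6.77% (5.87 to 7.79%) and within 200 kb of 40.8% (38.9 to 42.6%). Of 207002 pieces of the genome of 11250 bp that no broad region overlapped, 10.4, 4.31 and 34.6% had one within 50, 20 and 200 kb, below each interval. These pieces were not matched to the broad regions for repeated sequence or GC content, in which the broad regions differed from the genome (below). What part that played in the difference was not tested. In 2 pairs, one of them chr5:66848760-66859169 and chr5:66859290-66870689, the neighbours were separated by 120 bp, which is also the smallest gap anywhere in the list on the autosomes, and 14 pairs were separated by at most 500 bp. The gap beside a broad region had a median of 1410 bp, against 1560 bp between other regions of the list, and it was at most 500 bp in 33.1% against 27.8% of cases. Joining the regions of the list across such gaps raised the number of regions of 9.6 to 100 kb from 2666 to 7690. The number of broad regions thus depends on where an interval was broken.

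The densest stretches of 1 Mb held 8 broad regions each. At chr2:76404150-77326109 they covered 10.2% of a stretch with 9 protein-coding genes, among them Ttn, which encodes the giant sarcomere protein titin, and Zfp385b. The other two, chr10:124425000-125211359 and chr4:12790080-13788689, held 1 protein-coding gene each, the monocarboxylate transporter gene Slc16a7 and the transcriptional corepressor gene Runx1t1. A stretch with 7 broad regions, chr1:70737930-71742449, held Fn1, the gene of fibronectin.

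Sequence beside the broad regions was covered by the list about as much as sequence elsewhere. Other regions of the list covered a median of 26.8% of the 50 kb on each side of a broad region (quartiles 21.1 and 33.5%). The median was 26.0% around the shorter regions of the list, and 26.0% around tiles of the genome. With 20 kb on each side the medians were 27.2% for broad regions, 25.3% for shorter regions and 25.2% for tiles. The tiles are the background used throughout: each autosome was cut end to end into pieces of 11250 bp, the median length of all 2666 regions, and the 212400 pieces without an unsequenced base were kept. They count the whole genome and are not a draw from it.

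Without regard to sequence composition, the broad regions lay in genes about as often as the tiles did. At least 1 bp of an annotated gene was overlapped by 49.6% of the broad regions (1312 of 2645, interval 47.7 to 51.5%) and by 50.7% of tiles. For protein-coding genes the shares were 45.3% (43.4 to 47.2%) and 46.2%. With all 2666 regions the shares of broad regions were 49.5% and 45.2%. In both cases the share of tiles fell inside the interval of the broad regions. This did not hold under every setting. After regions of the list within 500 bp were joined, the shares were 53.1% and 49.3%, above those of the tiles. Of all bases in the broad regions, 42.6% lay in genes, against 41.8% of the bases of tiles.

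Gene starts, in contrast, were less frequent in the broad regions than in the tiles. A protein-coding gene start lay in 160 of the 2645 (6.05%, interval 5.20 to 7.02%), against 8.95% of tiles. A start within 5 kb of the region was found for 10.3% (9.22 to 11.5%) and 15.6%. Exons were overlapped by 32.5% (30.7 to 34.3%) and 35.1%, and exons made up 2.89% of the bases of broad regions, 3.45% of those of tiles and 3.49% of those of the shorter regions of the list. Regions wholly inside gene bodies without an exon made up 17.1% (453 regions, 15.7 to 18.6%), against 15.6% of tiles, whereas 12.6% crossed a gene boundary, against 16.1%.

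**Figure D2:**
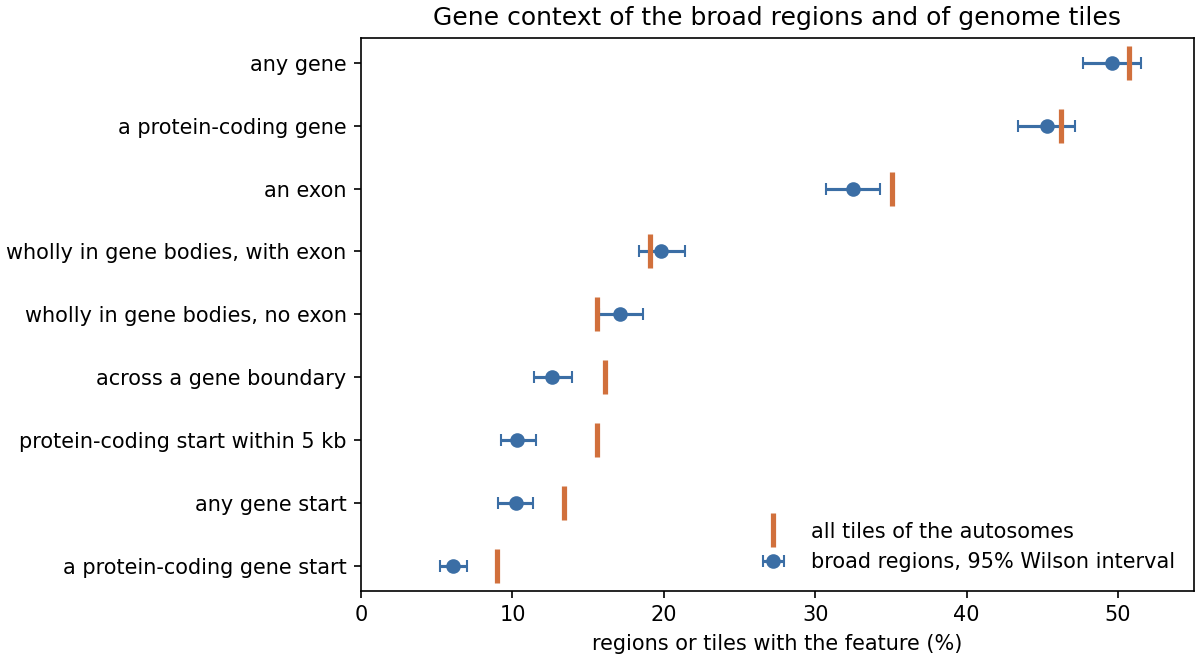
Share of broad regions with each gene feature (x axis, percent; circles with 95% Wilson intervals, n = 2645) beside the share of 212400 genome tiles (vertical marks). Over all tiles, whatever their content of repeats, the marks for any gene and for a protein-coding gene lie inside the intervals, and the marks lie to the right of the intervals for exons, gene boundaries and gene starts.

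By GC content, the share of tiles with a start lay above the interval of the broad regions in the highest band and inside it in the 4 lower bands. Among broad regions of more than 46% GC, 14.5% held a protein-coding start (49 of 339, interval 11.1 to 18.6%), against 22.2% of tiles of that range. Protein-coding genes were overlapped by 63.4% (58.2 to 68.4%) and 70.4% in that band, but by 49.8% (325 of 652) and 44.3% between 40 and 43% GC, where the share of tiles lay below the interval. For starts, between 37 and 40% GC the shares were 2.45% (1.55 to 3.84%) and 3.22%, and between 40 and 43% they were 5.37% (3.88 to 7.37%) and 6.23%. The 160 regions with a start had a median GC content of 44.2%, against 39.3% in the 1333 regions without a gene.

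The gene starts that broad regions did hold were close to all starts in the CG count and GC content of the bases upstream. Of 21418 autosomal protein-coding genes, 175 had their start inside a broad region, or 0.817%. The 150 bases upstream of these starts had a median of 5 CG, against 6 upstream of all starts read in the same way, and a median GC content of 58.0%, against 56.7%. At least 1 CG was found upstream of 85.1% (79.1 to 89.7%) and 87.5%, respectively, and at least 5 upstream of 52.0% (44.6 to 59.3%) and 56.4%. Both strands read the same for CG, and the window of Hcn4 printed above stands above the upper quartile of all starts (13 CG), whereas those of Nrxn3 and Trdn stand at or below the lower quartile of 2.

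Of the broad regions, 1333 overlapped no gene of any kind (50.4%, against 49.3% of tiles). Their distance to the closest protein-coding gene had a median of 147076 bp, against 103612 bp for the 104679 tiles without a gene. The distance was over 100 kb for 802 of them (60.2%, interval 57.5 to 62.8%), against 50.8% of these tiles. It was over 500 kb for 206 (15.5%, 13.6 to 17.5%), against 14.7%, which fell inside the interval, and the farthest, on chromosome 18, lay 2199221 bp away. These regions had the lowest median GC content of the classes compared, 39.3%, against 40.8% in regions wholly in gene bodies without an exon and 41.6% in those with an exon.

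The feature in which the broad regions stood farthest from the genome was repeated sequence. A word of 32 bases was called repeated when mm9 holds more than 2 copies of it on both strands together, and the authors' mapping kept no read with more than 2 alignments. Repeated words made up a median of 3.18% of the words of a broad region and 6.66% of those of a tile, and the means were 4.01 and 13.4%. More than 50% repeated words were found in 0 of 2645 broad regions, which allows a share of up to 0.145% (Wilson), and in 6 of all 2666 (0.225%), but in 6.09% of tiles. The decile of tiles with the fewest repeated words held the midpoint of a broad region in 2.45% of cases (2.25 to 2.67%), and the decile with the most in 0.0989% (0.0647 to 0.151%), against 1.24% over all tiles. Below the broad regions, the mean was higher in shorter regions of the list: 19.8% at 210 to 599 bp, 11.9% at 600 to 1199 bp, 7.90% at 1200 to 2399 bp and 4.73% at 4800 to 9599 bp, although the median region below 1200 bp held none. What part mappability played in where intervals were broken was not tested.

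Compared with tiles of a like share of repeated words, the broad regions lay in protein-coding genes less often. At up to 2% repeated words 57.2% of 792 broad regions overlapped one (53.7 to 60.6%), against 66.5% of tiles. Between 2 and 4% the shares were 46.2% (42.8 to 49.7%) and 57.8%, between 4 and 8% they were 38.6% (35.3 to 42.1%) and 50.7%, and between 8 and 16% they were 24.9% (19.9 to 30.7%) and 39.9%. Protein-coding starts were also less frequent in the first 3 of these bands, at 6.31% (4.82 to 8.23%) against 10.5%, 6.77% (5.23 to 8.70%) against 10.3% and 4.91% (3.60 to 6.67%) against 10.5%, whereas between 8 and 16% the share of tiles, 8.95%, fell inside the interval (3.43 to 9.36%). The 21 regions above 16% were too few to tell from the tiles in either feature. The near-equal shares over all tiles thus held for the regions as listed and without regard to repeats, not within these bands.

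GC content differed less. Its median was 40.5% in the broad regions (quartiles 37.6 and 43.7%, range 31.7 to 58.6%), 41.4% in tiles and 41.8% in the shorter regions. The share of tiles with a midpoint fell from 1.83% (1.66 to 2.02%) in the decile with the lowest GC content to 0.880% (0.763 to 1.02%) in the decile with the highest. Within the tiles up to the median of repeated words the contrast was larger, from 2.64% in the lowest and 2.90% in the next decile to 0.913% in the highest. The ratio of observed to expected CG had a median of 0.163 in broad regions and 0.173 in tiles.

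**Figure D3:**
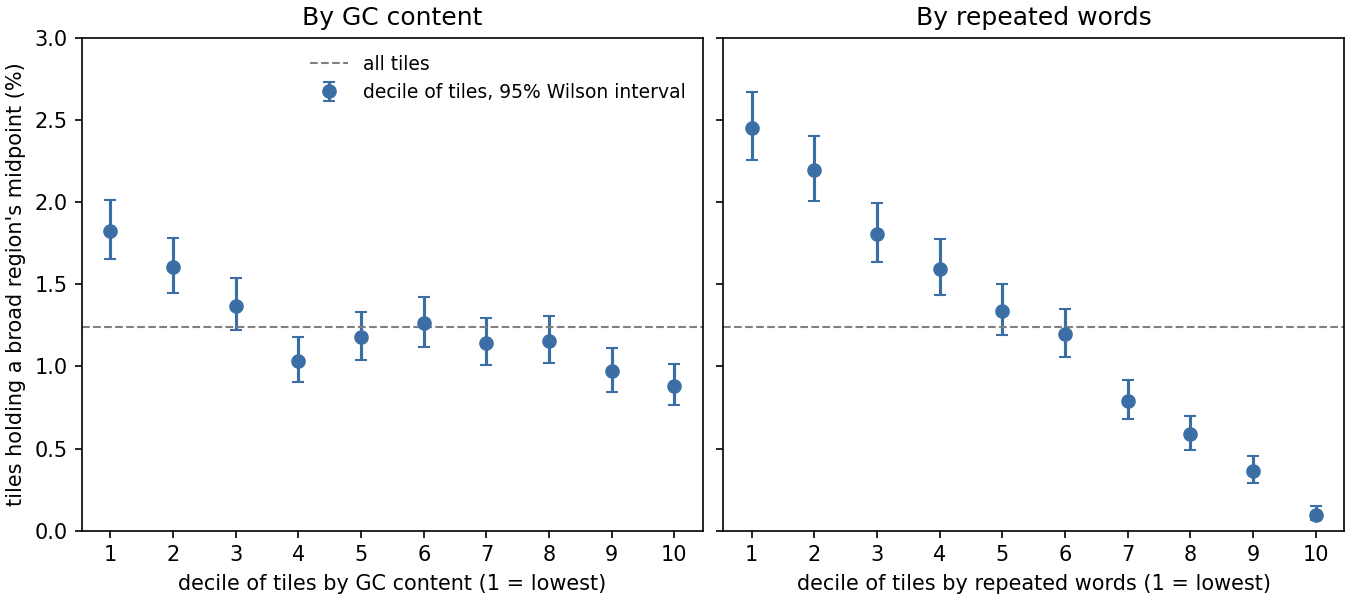
Share of genome tiles that hold the midpoint of a broad region (y axis, percent, with 95% Wilson intervals) for deciles of 21240 tiles ordered by GC content (left) and by the share of repeated words (right); the dashed line is the share over all tiles, 1.24%. The share falls in every step from 2.45 to 0.0989% with repeated words, and with less order from 1.83 to 0.880% with GC content.

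Binding motifs of factors known in the heart were searched as plain letters on both strands. The AP-1 motif TGANTCA occurred 0.344 times per kb in broad regions and 0.318 in tiles, AGATAA of the GATA factors 0.813 and 0.740, TTGCNNAA of C/EBP 0.522 and 0.507, GGAATG of the TEAD factors 0.599 and 0.592, and the E-box CAGCTG 0.399 and 0.403. The MEF2 motif, CTA and TAG with any 4 bases between them, occurred 0.198 and 0.183 times per kb. At this length nearly every region held each of them: AP-1 was in 98.0% of broad regions and 96.7% of tiles, GATA in 99.9 and 99.8%, TEAD in 99.8 and 99.8%, C/EBP in 99.5 and 99.3%, the E-box in 97.8 and 96.3% and MEF2 in 89.5 and 85.7%. In the 534 broad regions and 19266 tiles of 38 to 42% GC and 1 to 5% repeated words, 5 of the 6 densities drew together, with AP-1 at 0.363 and 0.359 per kb, MEF2 at 0.211 and 0.209, TEAD at 0.598 and 0.597, C/EBP at 0.543 and 0.537 and GATA at 0.882 and 0.838. The E-box drew apart there, at 0.385 per kb in broad regions and 0.369 in tiles. With GC content alone held to that range (920 broad regions and 76821 tiles), the densities of most of these motifs did not draw together. AP-1 was at 0.356 and 0.315 per kb, MEF2 at 0.210 and 0.190, TEAD at 0.609 and 0.594 and the E-box at 0.376 and 0.320. GATA drew slightly together, at 0.864 and 0.804, whereas C/EBP was lower in broad regions, at 0.545 and 0.553. A match to these letters is a description and not a binding site.

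A broad region overlapped 1036 of the 21418 protein-coding genes, or 4.84%. The share was 1.17% in the shortest decile of genes (up to 1080 bp), 0.654% in the second, and rose in every step from there to 25.4% in the longest (104822 bp and above). A longer gene offers more bases to overlap. The share of gene bases inside broad regions takes length out. It was 1.33% over all protein-coding genes and 1.32% over all sequenced bases of the autosomes, and lay between 0.584 and 1.13% in the 9 shorter deciles and at 1.57% in the longest. Of the 2645 regions, 1132 overlapped 1 protein-coding gene, 59 overlapped 2 and 6 overlapped 3. The 3 genes were Myh2, Gm10995 and Myh1 for a region of 18390 bp at chr11:67001220-67019609, which thus joins the genes of a pair of fast skeletal muscle myosins, and Ddx55, Eif2b1 and Gtf2h3 for 12030 bp at chr5:125018370-125030399, both chosen after the values were seen.

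**Figure D4:**
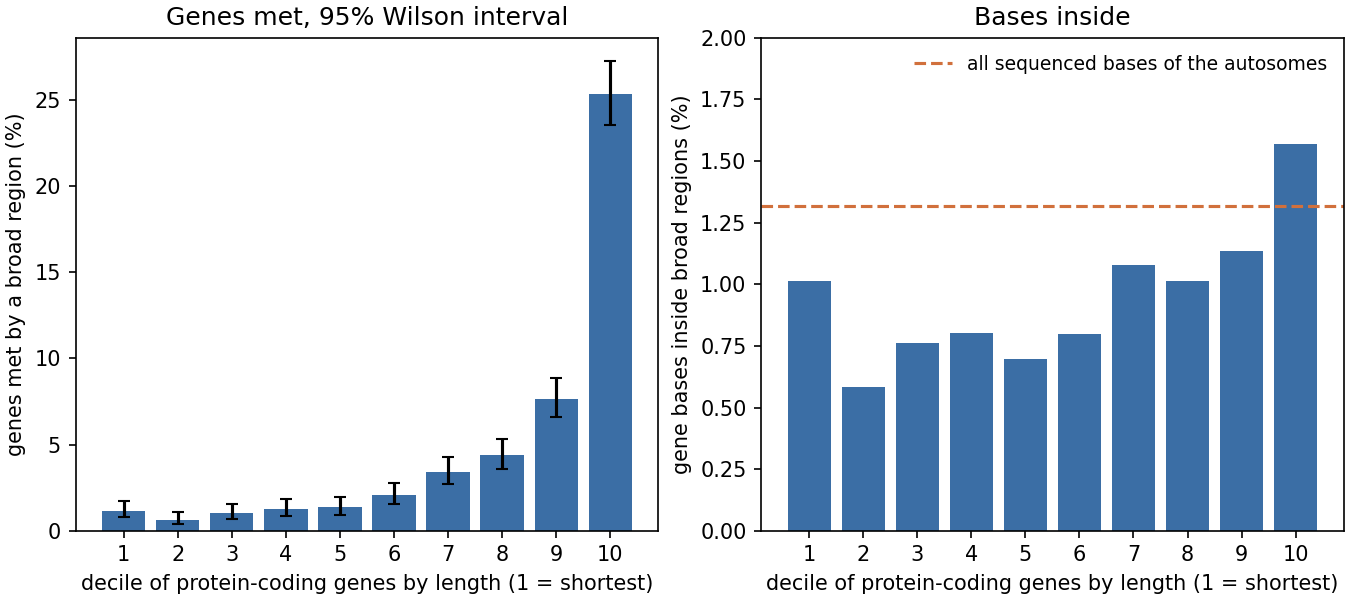
Protein-coding genes in deciles by length (x axis, 1 = shortest) and the share of genes that a broad region overlaps (left, percent, with 95% Wilson intervals, about 2142 genes a decile) or the share of their bases inside broad regions (right, percent). The share of genes rises to 25.4% in the longest decile, whereas the share of bases exceeds that of all sequenced bases (dashed line, 1.32%) only there, at 1.57%.

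The 10 genes with the most bases in broad regions were long, at 522578 bp (Ptprk) and above, and such a ranking favours long genes whatever their function. Nrxn3, which encodes a presynaptic neurexin, met 7 broad regions with 82120 bp of its 1612056 bp (5.09%), of which the region at its start ran from -9.44 to 5.53 kb from the start. The receptor phosphatase gene Ptprd met 6 (66060 bp, 2.91%), and Ptprk, Cadps2, Macrod2, Astn2, Cadm2 and the lipid kinase gene Dgkb met 4 each, with 10.4, 9.40, 2.60, 4.71, 4.83 and 6.16% of their bases. Clstn2 met 3, with 8.13%. The gene model Gm20388, which spans 4434882 bp across other genes of chromosome 8, met 5.

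In the list of long synaptic and adhesion genes, 25 of 32 met a broad region. These genes were overlapped by 65 broad regions, or 2.46% (1.93 to 3.12%), and by 1.55% of tiles. An exon was held by 21.5% of these 65 regions and by 22.3% of the tiles over the same genes. The median GC content was 37.6% in the 65 regions and 38.4% in the tiles over these genes, and the median share of repeated words 2.95 and 5.10%. The members of this list and of those below were chosen with results of these data known. A median of 28.3% of each gene's length lay in regions of any length, against 23.8% over all protein-coding genes. Over the heart and SWI/SNF gene lists below, this median ran from 17.4% (macrophage and inflammation genes) to 38.4% (epicardial genes). Sarcomere, cardiac transcription factor and matrix genes also lay above 28.3%, and the other lists below it.

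Genes of at least 10 kb that a broad region covered almost wholly were few. It held all of 4933427D06Rik, of Ambp, which encodes the precursor of a plasma protease inhibitor, and of Clec5a, which encodes a receptor of myeloid cells. It held 94.7% of Cox4i2, an isoform of a cytochrome c oxidase subunit, 89.7% of the tubulin gene Tuba8, 85.2% of Fam115e, 84.0% of 4930524B15Rik, 76.9% of the chromogranin gene Chga, 76.0% of the peroxisomal oxidase gene Hao2 and 74.6% of Zfp865. Counting shorter genes, 47 of the 21418 autosomal protein-coding genes lay wholly inside. They included, by a choice made after the values were seen, Aplnr, the apelin receptor gene, at chr2:84976517-84980079, Hes6, a gene of the Hes family of transcription factors, at chr1:93308060-93310615, and the forkhead gene Foxb1 at chr9:69605517-69608747. In the 3 shortest deciles of genes, up to 6278 bp, 1.01, 0.584 and 0.761% of gene bases lay in broad regions, against 1.32% of all sequenced bases. A background share for genes wholly inside was not computed.

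Of the genes of cardiomyocyte calcium handling and ion channels, 6 of 20 met a broad region, in a list with a median gene length of 78680 bp. They were overlapped by 8 broad regions, or 0.302% (0.153 to 0.596%), against 0.182% of tiles, which fell inside the interval. Ryr2, which encodes the calcium release channel of the sarcoplasmic reticulum, had 1 region of 21360 bp at chr13:12162780-12184139, 15.1 to 36.4 kb from its start and without an exon. Cacna1c, the gene of the L-type calcium channel, had 2, of 10110 and 10920 bp, 400 and 195 kb from its start. Kcnd2, which encodes a channel of the transient outward potassium current, had 1 of 12810 bp that began 1.45 kb after its start and 1 of 13080 bp at 341 kb.

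In 2 genes of this list the broad region held the start. The region of Hcn4, which encodes a pacemaker channel, measured 11250 bp (chr9:58665930-58677179) and ran from -5.39 to 5.86 kb from the CG-rich start shown above, at 54.4% GC. That of Trdn, the gene of triadin, a partner of the calcium release channel, measured 11040 bp (chr10:32801550-32812589) and ran from -1.74 to 9.30 kb from the start at 36.7% GC. Slc8a1, the gene of the sodium-calcium exchanger, met 1 of 9630 bp that reached past its 3′ end, with 4451 bp inside the gene and 2 exons.

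In the list of sarcomere and Z-disc genes, 1 of 31 met broad regions, Ttn. Its 2 regions, 10920 bp at chr2:76667520-76678439 and 11760 bp at chr2:76605990-76617749, lay 142 to 153 and 203 to 215 kb from its start. They touched 29 and 22 of its 345 merged exons, so that 2347 and 6161 of their bases were exonic. These genes were overlapped by 0.0756% of broad regions (0.0207 to 0.275%) and 0.0843% of tiles.

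Among 18 core cardiac transcription factor genes, Gata6 and Mef2c met a broad region. That of Gata6, on chromosome 18, measured 11130 bp, began 1.11 kb after the gene start, touched 5 of 7 exons and held 33.6% of the gene. That of Mef2c (chr13:83723400-83733479) lay 80.4 to 90.4 kb into the gene and touched 1 of 14 exons. Their share of broad regions was 0.0756%, against 0.0876% of tiles.

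Of 16 epicardial genes, Wt1, which encodes a transcription factor of the embryonic and activated epicardium, was the one that met a broad region. This region measured 10440 bp (chr2:105008310-105018749) and ran from 41.6 to 52.1 kb from the gene start, over 3 of 10 exons and the 3′ end. Of its bases, 5464 lay inside the gene, or 11.6% of Wt1, and the others downstream. It had 45.9% GC and 4.84% repeated words, and 27.7% of its 50-kb flanks were covered by other regions, close to the 26.8% at the median broad region. No broad region overlapped the start of Wt1. The epicardial genes were overlapped by 0.0378% of broad regions (0.00667 to 0.214%) and 0.0315% of tiles, within counting error.

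Matrix genes of repair met broad regions in 3 of 24. The region of Fn1, 11010 bp at chr1:71689350-71700359, held the gene start (-0.58 to 10.4 kb) and touched 7 of 46 exons. That of Col6a3 (10440 bp, chr1:92718390-92728829) lay 11.7 to 22.1 kb from the start, and that of Col5a1 (9720 bp, chr2:27886740-27896459) lay over the 3′ end, with 8295 bp inside the gene. Of 10 smooth muscle contractile genes, Cald1, which encodes caldesmon, met 1 region of 18420 bp (chr6:34646850-34665269), 98.4 to 117 kb from its start, and Itga8, an integrin gene, met 1 of 11130 bp. The shares were 0.113% of broad regions and 0.0767% of tiles for matrix genes, and 0.0756 and 0.0400% for smooth muscle genes, each within counting error.

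**Figure D5:**
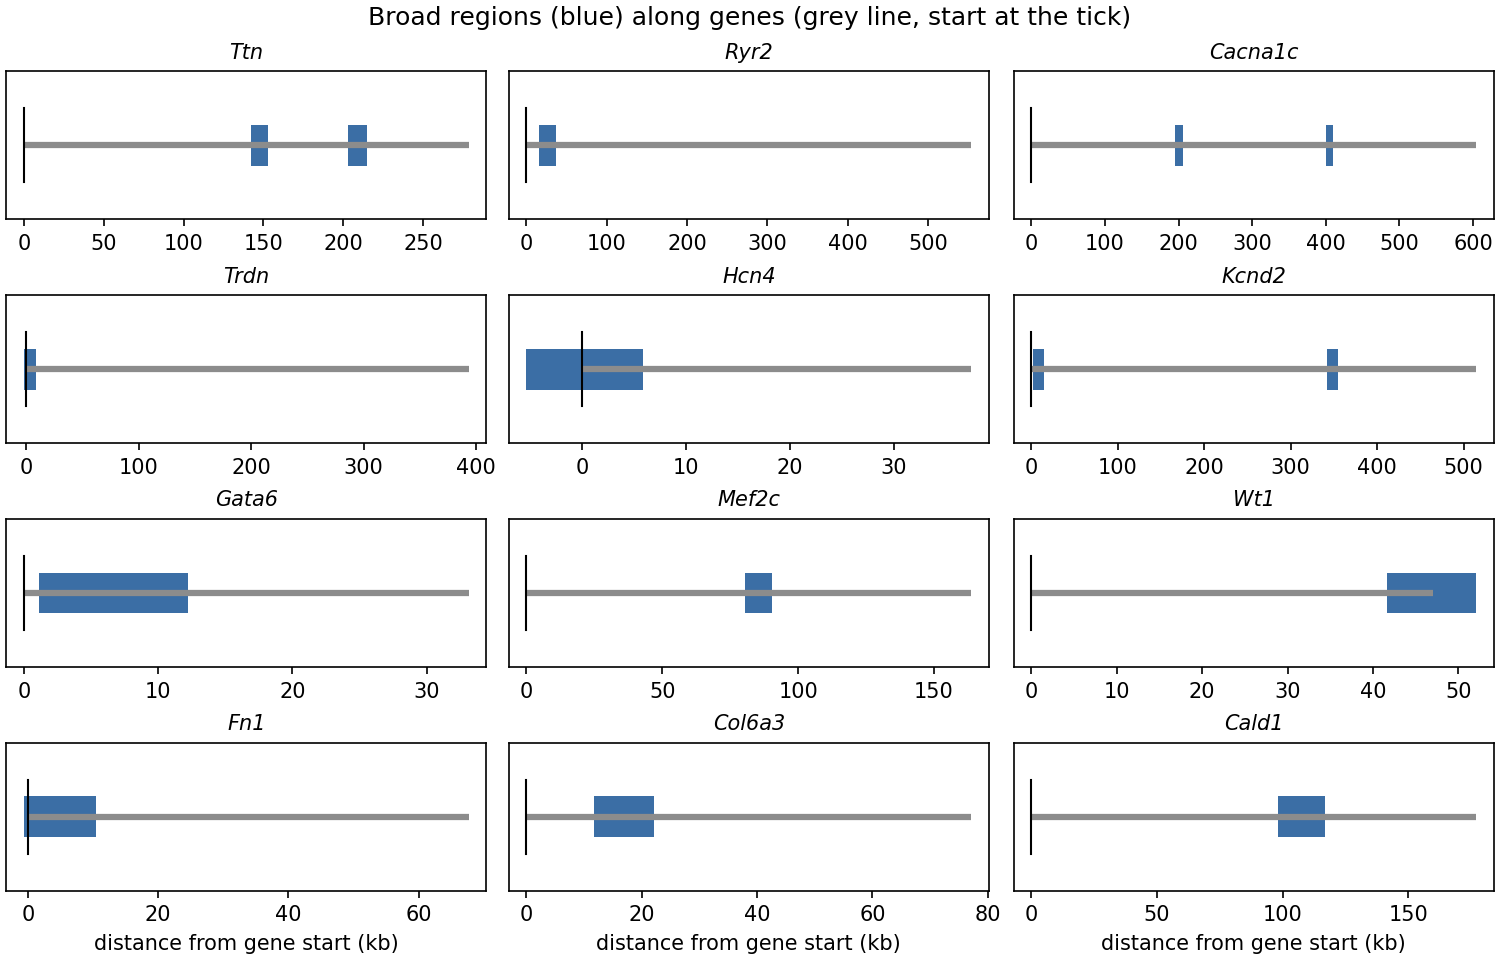
Position of broad regions (bars) along 12 genes of the heart lists (grey lines), as distance in kb from the gene start (tick at 0) in the direction of transcription; each panel has its own scale. Bars cover the starts of Trdn, Hcn4 and Fn1, the bar of Wt1 covers its 3′ end, and the bars of Ttn, Ryr2, Cacna1c, Mef2c and Cald1 lie inside the genes.

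No gene met a broad region in 3 lists, made of 14 endothelial genes, 19 macrophage and inflammation genes and all 25 genes of SWI/SNF subunits. Each 0 of 2645 allows a share of up to 0.145%, above the 0.0654, 0.0306 and 0.0777% of tiles that overlap them, so that an absence beyond that of the tiles was not detectable with this number of regions.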

How the data were processed

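The authors mapped ChIP-seq reads with Bowtie 1.0.0 to mm9, keeping reads with at most 2 alignments, and called regions with MACS2 2.0.10. The methods name its bdgcomp function, but the list is named as its differential function names an output, and which of them made it is unclear. The deposited list gives start and end positions in bp and a region name, and no signal or count. How duplicates were combined is not given in the sources used here.

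Regions of at least 9600 and at most 100000 bp on chromosomes 1 to 19 were kept. Regions with over 50% unsequenced bases were set apart after the data were seen. Lengths were multiples of 30 bp, and positions were counted from 1. Genes were those of the GENCODE annotation of mm9. Overlap was at least 1 bp, and bases inside genes were counted once. Tiles of 11250 bp without unsequenced bases gave the background. Repeated words were counted on a fixed 1 in 16 of all words of 32 bases. This measure replaced the share of soft-masked bases, because the reference used here is not soft-masked. Python 3.11.15 with numpy 2.4.6, pandas 2.3.3 and scipy 1.17.1 was used, and base counts were tested on simulated intervals against bedtools 2.31.1. Shares have 95% Wilson intervals, which treat regions as independent, and no p-value was computed.

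Named regions were the 10 longest, 3 on each side of the length threshold and 3 at each end of the GC range. Named genes were those under the 10 longest regions, the 10 with the most bases in broad regions, the 10 with the highest share among genes of at least 10 kb, the 10 met by the most regions, and up to 4 per gene list. The closest pairs, the densest stretches, the 10 longest mostly sequenced regions and the distances of tiles to broad regions and genes were added after the data were seen. The members and the gene lists were chosen with earlier results of these data known. Some genes and sequences that these rules name are not reported here.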

Additional observations from a re-analysis of the deposited data

Results flagged for a closer look

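Regions of 9.6 to 100 kb on the sex chromosomes were outside the rule. Chromosome X had 154, of which 2 were mostly unsequenced, so that the others numbered 0.938 per Mb of sequenced bases, within the range of the autosomes (0.757 to 1.25). Chromosome Y had 5 on 2.70 Mb of sequenced bases, or 1.85 per Mb, a rate that rests on 5 regions. They were not set against a list from control hearts here.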

How the results depend on the processing

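No paired analysis was possible because the list does not separate the duplicates, and for the same reason no replicate could be left out. The number of regions was 5364, 970 and 48 at minimum lengths of 8000, 12000 and 20000 bp and 7690 with regions within 500 bp joined. The share with a gene was 42.7% when at least 50% of the region had to lie in genes, 53.3% with 5 kb added to each gene, 57.1% at 20000 bp and 53.1% after joining. For protein-coding genes these were 40.4, 47.8, 50 and 49.3%. The share with a protein-coding start was 10.3% within 5 kb, 7.14% at 20000 bp and 7.77% after joining, and the share with a neighbour 6.77% within 20 kb, 40.8% within 200 kb, and 25.3, 5.05 and 0% at 8000, 12000 and 20000 bp. At 20000 bp the median GC content was 41.6%, that of covered flanks 23.0% and that of repeated words 3.40%, from 28 mostly sequenced regions. After joining, median GC was 41.3% and repeated words 3.39%, and at 12000 bp repeated words were 3.36%. Genes met numbered 1839, 400 and 14 at the 3 lengths. Tiles of 10290 and 12900 bp, the quartile lengths, held a gene in 50.1 and 51.7%, a protein-coding gene in 45.7 and 46.9% and a protein-coding start in 8.22 and 10.1%. The share of starts stayed below that of tiles of each length. After joining, the shares with a gene and with a protein-coding gene lay above those of tiles of each length. The other 25 of 60 alternative values, including those with all 2666 regions, stayed within the counting interval of the reported value or within 1.5 times a count. GC content outside repeats and the soft-masked share were not run, because the reference is not soft-masked. Depth is unknown, so that a weak region cannot be told from a strong one.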

Other observations

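Among families of clustered genes, between 0 and 15 genes of a family met a broad region. Of 1081 olfactory receptor genes, which are short, 15 met one, and 12 had their start inside. They were overlapped by 0.529% of broad regions (0.316 to 0.887%) and 0.544% of tiles. Of 322 vomeronasal receptor genes, 4 met one (Vmn2r94, Vmn2r20, Vmn2r4 and Vmn1r217), with 0.151% of broad regions (0.0588 to 0.388%) and 0.295% of tiles. The broad regions of Vmn2r20 and Vmn2r4 held 37.1 and 25.7% repeated words, against a median of 3.18% in all broad regions. Of 365 genes named Zfp, 10 met one (0.454%, 0.260 to 0.791%, against 0.596% of tiles), among them Zfp385b with 3 broad regions, of which 1 held its start.

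Of 40 Hox genes, the homeobox genes of body-axis patterning, 3 met a broad region, all in the Hoxc cluster. A region of 10290 bp at chr15:102790980-102801269 held the start and 79.3% of Hoxc10. Hox genes were overlapped by 2 broad regions, or 0.0756% (0.0207 to 0.275%), and by 0.0188% of tiles, below an interval that rests on 2 regions. Of 99 keratin and keratin-associated genes, 4 met one, with all of Krt1 and Krtap9-5, 73.3% of Krt20 and 38.4% of Krt84 (0.151%, 0.0588 to 0.388%, against 0.0593% of tiles). Of 59 serpin genes, 3 met one (Serpinb2, Serpini2 and Serpinb6a), with 0.113% of broad regions (0.0386 to 0.333%) and 0.0734% of tiles. Of 27 killer-cell lectin-like receptor genes, Klra17 did, with 0.0378% (0.00667 to 0.214%) and 0.0330%. No broad region overlapped the 21 major urinary protein genes, 53 defensins, 74 cytochromes P450, 67 clustered histone genes, 24 clustered protocadherins or 89 cytosolic ribosomal protein genes; each 0 of 2645 allows up to 0.145%, above the 0.0160 to 0.113% of tiles that overlap them.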
